A study of Brassica napus with 6 samples.

Results

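The genes described are the xyloglucan endotransglucosylase/hydrolases (XTH) of Brassica napus, which made up 107 of the 145279 genes in the table. A gene was a member when the annotation of its Arabidopsis match named it as such an enzyme, and no expression value entered that rule. The family was nevertheless taken up with results of these data already known, so the counts below describe the members and are read against the share among all genes. The 107 members matched 30 different Arabidopsis genes, with 53 members on the A subgenome and 54 on the C subgenome of this allotetraploid crop. XTH1, XTH19 and XTH20 were not analysed here.

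RNA was measured in single, very young leaves, the third leaf of each plant, from near-isogenic doubled haploid lines grown with 16 h of light a day. DH6-47 is the hairy line, with about 600 trichomes on a leaf, and DH6-110 is labelled glabrous. Both lines go back to Quantum/LG3260 and CN113136 as parents. Each phenotype is represented by 1 line, so trichome number and any other difference between these lines cannot be told apart. The labels list 3 leaves per line and the design text gives 2. Values of replicates 1 and 3 were used, so 2 hairy leaves stand against 2 glabrous leaves throughout, and the replicate 2 leaves were not analysed here. Each leaf is named as an individual leaf, and nothing else in the labels says how replicates were grown apart.

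Levels are in TPM, a measure of transcript abundance that corrects for transcript length. TPM scale each leaf to a common total and carry no read counts, so the depth behind them is unknown. Leaf totals ran from 954250 to 962645 TPM, and 39919 to 43209 genes reached 1 TPM. Across 44247 genes, which are not independent replicates, log2 values correlated at 0.948 for the pair of hairy leaves and at 0.909 for the pair of glabrous leaves, against 0.747 to 0.80 where a hairy leaf was paired with a glabrous leaf. As whole leaves were sampled, fewer cells of a type and less RNA per cell cannot be told apart.

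Xyloglucan is a branched glucan that binds to cellulose in the primary cell wall of dicots. XTH enzymes cut a xyloglucan chain and join the cut end to another xyloglucan chain, or, in a few members, to water, and through this they are tied to wall loosening, wall strengthening and the insertion of new wall material as cells grow. The family is grouped by protein phylogeny into clades I, II, IIIA and IIIB, and hydrolase activity has been shown for members of clade IIIA. In Arabidopsis, XTH22, also known as TCH4, is rapidly induced by touch and by brassinosteroids.

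The summed level of the family was about 2 times as high in the hairy leaves. All members together reached 3349 TPM in hairy 1 and 4098 TPM in hairy 3, against 2092 TPM in glabrous 1 and 1486 TPM in glabrous 3. Each hairy leaf lay above both glabrous leaves, and glabrous 3 was the lowest of the 4. The mean was 3724 ± 530 TPM in the hairy line and 1789 ± 429 TPM in the glabrous line (SD, n = 2 each), a ratio of 2.08. These sums were 0.348% and 0.429% of all TPM in the hairy leaves, against 0.219% and 0.155% in the glabrous leaves. A trimmed-mean scaling of the leaves gave 2907 and 4502 TPM in hairy 1 and 3, against 2521 and 1293 TPM in glabrous 1 and 3, so that hairy 1 and glabrous 1 came closer while the order of the lines held. No test was made on the total, because the members were chosen with results known.

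**Figure D1:**
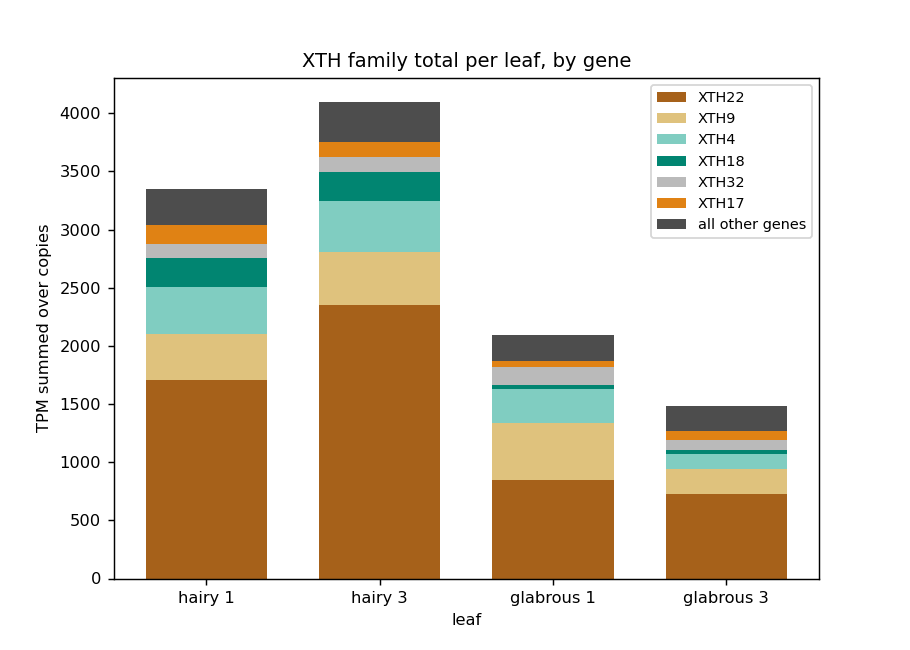
Stacked bars give the TPM of the XTH family in each of the 4 leaves (x axis), hairy 1 and 3 on the left and glabrous 1 and 3 on the right, summed over copies and split by gene (y axis, TPM). XTH22 is the largest block in every leaf, at 1705 and 2356 TPM in the hairy leaves against 847 and 728 TPM in the glabrous leaves.

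Much of that total came from a single gene. The 9 copies of XTH22 summed to 1705 TPM in hairy 1 and 2356 TPM in hairy 3, against 847 TPM in glabrous 1 and 728 TPM in glabrous 3. They were 50.9% and 57.5% of the family in the hairy leaves, against 40.5% and 49.0% in the glabrous leaves. Without XTH22 the family summed to 1644 and 1742 TPM in the hairy leaves, against 1245 and 757 TPM in the glabrous leaves, a ratio of 1.69. The hairy leaves lay above the glabrous ones with or without XTH22.

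To set aside how reads of near-identical copies were placed, TPM were summed over all copies that share an Arabidopsis match, and 15739 such sums were tested with limma on log2(TPM + 1). At an adjusted p under 0.05, XTH18 and XTH23 were higher in the hairy line and 0 were lower, out of 19 XTH sums tested. Among all sums 1.8% were higher and 0.241% lower, or 2.04% in either direction. At an unadjusted p under 0.05, limma gave 9 XTH sums higher and 0 lower, where all sums gave 6.01% and 2.17%. In 9 of the 19 the hairy leaves lay above both glabrous leaves, against 17.0% of all sums, and in 0 below, against 12.4% of all sums, with the other 10 overlapping. The median log2 change was 0.60 over the XTH sums and 0.02 over all sums. With 1 leaf left out, 1 XTH sum was higher without hairy 1 or hairy 3, and 5 were higher without glabrous 1 or glabrous 3.

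XTH18, which promotes elongation of the primary root in Arabidopsis, showed the clearest separation of the lines. Its copies summed to 250 TPM in hairy 1 and 247 TPM in hairy 3, against 37.8 TPM in glabrous 1 and 38.0 TPM in glabrous 3. The leaves of a line were nearly alike, and the mean was 248 ± 2.65 TPM in the hairy line and 37.9 ± 0.0935 TPM in the glabrous line (SD, n = 2 each), a ratio of 6.55. The log2 change was 2.68 ± 0.34 (SE; limma, Benjamini-Hochberg adjusted p = 0.000707), and it was called in all 17 alternatives tried.

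XTH23, the closest relative of XTH22 in Arabidopsis, was the other sum that was called. It reached 30.4 TPM in hairy 1 and 39.8 TPM in hairy 3, against 4.24 TPM in glabrous 1 and 5.91 TPM in glabrous 3. Both hairy leaves were several times above both glabrous leaves, with a ratio of means of 6.92 and a log2 change of 2.57 ± 0.49 (SE; limma, adjusted p = 0.0113). It was called in 12 of 17 alternatives and in 4 of the 8 that left out a leaf, and it was lost without hairy 1 or hairy 3. Over these 8 its log2 change ranged from 2.37 to 2.77.

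For XTH22 itself, the line means were 2030 ± 460 TPM in the hairy line and 788 ± 84.1 TPM in the glabrous line (SD, n = 2 each), a ratio of 2.58. The leaf values did not overlap, and the log2 change of 1.35 ± 0.40 (SE) missed the threshold at an adjusted p of 0.127 in limma. XTH17, another clade II member, had 158 and 129 TPM in hairy 1 and 3, against 48.6 and 69.7 TPM in glabrous 1 and 3. It too separated the lines without overlap, with a log2 change of 1.28 ± 0.36 (limma, adjusted p = 0.103). XTH24, known as MERI5 in Arabidopsis for its expression in meristems, had 14.6 and 21.5 TPM in the hairy leaves against 8.35 and 4.6 TPM in the glabrous leaves, at an adjusted p of 0.368 in limma.

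Among the clade I genes, XTH8 and XTH6 showed the larger differences. XTH8 had 31.2 and 58.9 TPM in hairy 1 and 3, against 13.8 and 8.67 TPM in glabrous 1 and 3, with a log2 change of 1.88 ± 0.49 (SE; limma, adjusted p = 0.0668). XTH6 had 33.1 and 56.6 TPM in the hairy leaves against 11.1 and 20.8 TPM in the glabrous leaves, with a log2 change of 1.45 ± 0.48 (SE; limma, adjusted p = 0.209). In both genes the hairy leaves lay above the glabrous leaves, and neither sum passed the threshold.

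XTH4 and XTH9, which act together in secondary growth of the Arabidopsis stem, were next to XTH22 in level. XTH4 reached 403 and 440 TPM in hairy 1 and 3, against 288 and 131 TPM in glabrous 1 and 3, without overlap and at an adjusted p of 0.308 in limma. XTH9 reached 398 and 451 TPM in hairy 1 and 3, against 493 and 210 TPM in glabrous 1 and 3. For XTH9 the highest and the lowest leaf were both glabrous, and the log2 change of 0.40 turned to -0.22 without glabrous 3. XTH16 had the same order of leaves, with 46.8 and 51.5 TPM in the hairy leaves against 56.6 and 17.8 TPM in the glabrous leaves, and its log2 change of 0.60 turned to -0.20 without glabrous 3. XTH7 stood at 8.73 and 13.2 TPM in the hairy leaves and 9.58 and 6.31 TPM in the glabrous leaves, and XTH10 at 5.64 and 2.89 TPM in the hairy leaves and 3.59 and 6.10 TPM in the glabrous leaves. Both overlapped between the lines.

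The clade III genes that were well expressed showed little difference between the lines. XTH28, needed for growth of stamen filaments in Arabidopsis, had 61.7 and 47.1 TPM in the hairy leaves against 61.2 and 59.1 TPM in the glabrous leaves, with a log2 change of -0.16 ± 0.37 (SE; limma, adjusted p = 1.00). XTH27, which acts in tracheary elements of small veins in Arabidopsis leaves, had 73.0 and 44.1 TPM in the hairy leaves against 52.6 and 84.7 TPM in the glabrous leaves. XTH32, of the hydrolase clade IIIA, had 123 and 134 TPM in the hairy leaves against 153 and 88.2 TPM in the glabrous leaves. All of these overlapped between the lines, and the log2 changes of XTH27 and XTH32 were -0.23 and 0.14. Without 1 leaf these small changes took the opposite sign: XTH27 was 0.13 without hairy 3 and 0.11 without glabrous 3, XTH28 was 0.036 without hairy 3, and XTH32 was -0.25 without glabrous 3.

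The weakly expressed sums add little. XTH33, whose product is anchored at the cell surface in Arabidopsis, had 3.71 and 3.14 TPM in the hairy leaves against 1.65 and 0.36 TPM in the glabrous leaves, with a log2 change of 1.22 (limma, adjusted p = 0.485). XTH31 had 0.984 and 1.24 TPM in the hairy leaves against 0.619 and 2.89 TPM in the glabrous leaves, and XTH30 had 1.06 and 2.14 TPM in the hairy leaves against 0.466 and 1.74 TPM in the glabrous leaves. In XTH31 and XTH30 the lines overlapped. For 8 genes, XTH2, XTH3, XTH11, XTH13, XTH14, XTH15, XTH21 and XTH26, all 23 copies were listed at 0 in every leaf. Several of these, among them XTH14, XTH21 and XTH26, are known from roots in Arabidopsis. XTH12, XTH25 and XTH29 stayed under 1 TPM in every leaf, and XTH5 reached at most 1.81 TPM.

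**Figure D2:**
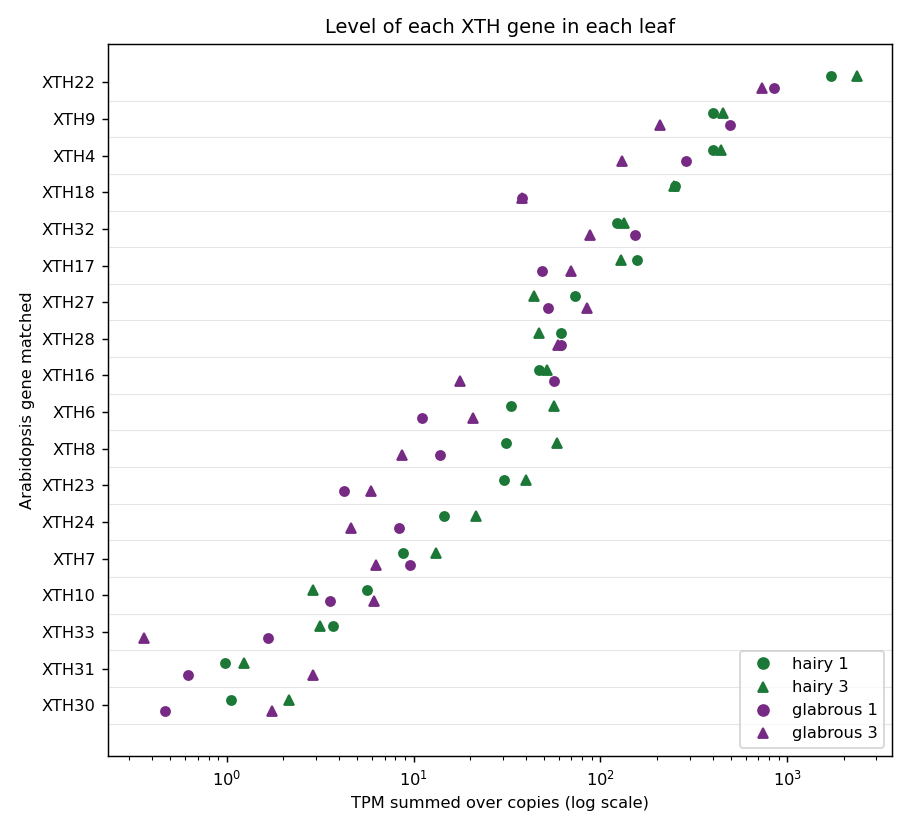
Each row is an XTH gene, and each point is the TPM summed over its copies in a leaf (x axis, log scale), with hairy and glabrous leaves in different colours. XTH18 and XTH23 show the widest gap between the lines, while XTH9, XTH16, XTH27, XTH28 and XTH32 overlap.

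XTH22, XTH9 and XTH4 had the highest means in both lines, and the order below them differed. XTH22 led in every leaf. Below it, XTH9 with 424 ± 37.0 TPM and XTH4 with 421 ± 26.3 TPM did not differ beyond their spread in the hairy line, and XTH18 followed with 248 ± 2.65 TPM (SD, n = 2). In the glabrous line XTH9 with 351 ± 200 TPM and XTH4 with 210 ± 111 TPM overlapped as well, and XTH32 with 120 ± 45.6 TPM, XTH27 with 68.7 ± 22.7 TPM, XTH28 with 60.2 ± 1.49 TPM and XTH17 with 59.2 ± 15 TPM all had a higher mean than XTH18 with 37.9 ± 0.0935 TPM (SD, n = 2). XTH18 was thus the fourth gene of the family by mean level in the hairy line, and several genes with little difference between the lines lay above it in the glabrous line. TPM are scaled to transcript length, so these levels can be set side by side between genes.

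By single copies, 48 of the 107 members reached 1 TPM in at least 2 leaves and were tested, 23 on the A and 25 on the C subgenome. Of the other 59, 43 were listed at 0 in every leaf, which is 40.2% of the members against 58.3% of all genes, and 16 were above 0 but stayed under 2 TPM in every leaf. A limma fit over 44247 genes placed 12 of the 48 tested copies (25%) higher in the hairy leaves and 0 lower, at an adjusted p under 0.05. Of all tested genes, 5.24% were higher and 4.48% lower, or 9.72% in either direction. The 12 copies belong to 8 genes, with 5 on the A and 7 on the C subgenome. At an unadjusted p under 0.05, limma gave 24 copies higher and 0 lower, where all genes gave 9.88% and 7.5%. The median log2 change was 0.99 over the 48 copies and 0.03 over all tested genes, and the range ran from -0.87 to 3.28. Of the 12, 3 copies of XTH23, XTH24 and XTH32 were under 1 TPM in both glabrous leaves and so passed the low-value filter through the hairy leaves alone. Of the 45 tested copies with 1 TPM in a leaf of each line, 9 were higher and 0 lower, with a median log2 change of 0.88, where all genes of that kind gave 2.78% higher and 1.48% lower. The hairy leaves lay above both glabrous leaves in 30 of the 48 copies, against 21.4% of all tested genes, and below both in 1, against 17.4%. The 30 include the 3 copies that passed the filter through the hairy leaves alone, which could not lie below.

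The count of 12 depended on single leaves, as did the count over all genes. Without hairy 1, 5 copies were higher. Without hairy 3, 4 were higher when 1 TPM in 1 leaf was required and 3 when it was required in 2 leaves. Without glabrous 1, these counts were 7 and 20. Of the 12 copies themselves, 5 or 4 were still called without hairy 1, 4 or 3 without hairy 3, 5 or 10 without glabrous 1 and 10 or 12 without glabrous 3, by the same filters. No copy was lower at an adjusted p under 0.05 in any of the 19 alternatives, and in the 18 other than the fit per transcript limma gave at most 1 copy lower at an unadjusted p under 0.05. Of the 12, 4 were called in every alternative that tested them, namely the 3 copies of XTH18 and the A01 copy of XTH23. The XTH23 copy was tested in 15 alternatives, against 17 for the XTH18 copies. It failed the filter of 1 TPM in 2 leaves once a hairy leaf was left out. The other 8 of the 12 were lost in at least 1 alternative, with 0 reversals. In simulated leaves with the same number of genes, a log2 change of 1 was recovered in 8.96% of 67 changed genes and a change of 2 in 92.5%. Only well-expressed genes were changed there, and far fewer than were called in the real leaves. These shares are therefore no detection limit for the copies above, although a log2 change near 1 was mostly missed in that setting.

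**Figure D3:**
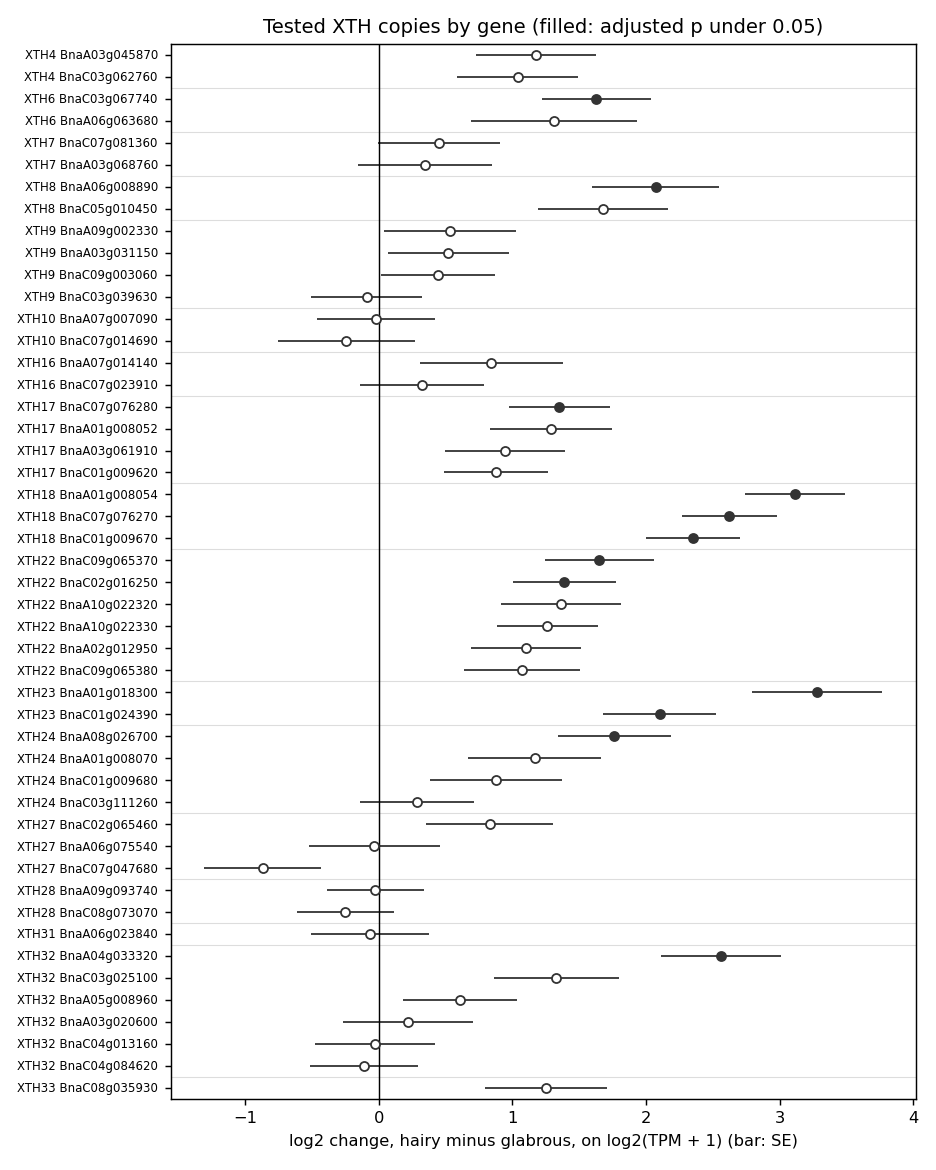
Each point is a tested XTH copy, placed by gene (y axis) and by its log2 change of hairy minus glabrous on log2(TPM + 1) (x axis), with the SE as a bar and filled points for an adjusted p under 0.05. The 12 filled points all lie right of 0, between 1.35 and 3.28, as do the open points of the other clade II copies.

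The 3 expressed copies of XTH18 behaved alike. BnaA01g008054.4DH on chromosome A01 had 56.3 and 67.9 TPM in hairy 1 and 3, against 6.43 and 6.06 TPM in glabrous 1 and 3, with a log2 change of 3.12 ± 0.37 (SE; limma, adjusted p = 0.000205). BnaC07g076270.4DH on C07 had 104 and 84.7 TPM in the hairy leaves against 15.2 and 13.6 TPM in the glabrous leaves, with a log2 change of 2.63 ± 0.36 (SE; limma, adjusted p = 0.000449). BnaC01g009670.4DH on C01 had 90 and 93.6 TPM in the hairy leaves against 16.1 and 18.3 TPM in the glabrous leaves, with a log2 change of 2.35 ± 0.35 (SE; limma, adjusted p = 0.000871). In each copy the lower hairy leaf was more than 4 times the higher glabrous leaf. The other 3 copies of XTH18, on A03, A08 and C03, stayed at or under 0.264 TPM in every leaf.

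XTH23 had a copy on each subgenome. BnaA01g018300.4DH on A01 had 8.89 and 13.2 TPM in hairy 1 and 3, and was listed at 0 in glabrous 1 and at 0.485 TPM in glabrous 3, with a log2 change of 3.28 ± 0.49 (SE; limma, adjusted p = 0.000828). Because the glabrous level is near 0, this change depends on the pseudocount and is no bound, and it was 5.50 with a pseudocount of 0.1. BnaC01g024390.4DH on C01 had 21.5 and 26.6 TPM in the hairy leaves against 4.24 and 5.43 TPM in the glabrous leaves, with a log2 change of 2.10 ± 0.42 (SE; limma, adjusted p = 0.00629). In the glabrous leaves nearly all XTH23 signal was thus on the C01 copy.

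All 6 expressed copies of XTH22 were above in both hairy leaves, and 2 of them passed the threshold. BnaC09g065370.4DH on C09 had 405 and 461 TPM in hairy 1 and 3, against 152 and 124 TPM in glabrous 1 and 3 (log2 change 1.65 ± 0.41 SE; limma, adjusted p = 0.0217). BnaC02g016250.4DH on C02 had 124 and 164 TPM in the hairy leaves against 48.5 and 59.4 TPM in the glabrous leaves (log2 change 1.39 ± 0.38 SE; limma, adjusted p = 0.0402). The most abundant copy, BnaA10g022320.4DH on A10, had 707 and 1007 TPM in the hairy leaves against 389 and 275 TPM in the glabrous leaves, and missed the threshold (limma, adjusted p = 0.0916). The others were BnaA10g022330.4DH with 139 and 159 TPM in the hairy leaves against 62.5 and 60.3 TPM in the glabrous leaves, BnaA02g012950.4DH with 180 and 277 TPM in the hairy leaves against 91.9 and 117 TPM in the glabrous leaves, and BnaC09g065380.4DH with 150 and 289 TPM in the hairy leaves against 104 and 93.2 TPM in the glabrous leaves. Their adjusted p in limma lay between 0.0578 and 0.197, and their log2 changes between 1.07 and 1.26. A further 3 copies of XTH22 stayed under 0.1 TPM.

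Single copies of XTH8, XTH6, XTH17, XTH24 and XTH32 made up the rest of the 12. BnaA06g008890.4DH, the A06 copy of XTH8, had 13.0 and 23.4 TPM in hairy 1 and 3, against 2.98 and 3.85 TPM in glabrous 1 and 3 (log2 change 2.07; limma, adjusted p = 0.0141). Its counterpart on C05, BnaC05g010450.4DH, had 18.2 and 35.5 TPM in the hairy leaves against 10.8 and 4.81 TPM in the glabrous leaves and missed the threshold (log2 change 1.68; limma, adjusted p = 0.0505). BnaC03g067740.4DH, the C03 copy of XTH6, had 21.3 and 31.3 TPM in the hairy leaves against 8.39 and 7.00 TPM in the glabrous leaves (log2 change 1.63; limma, adjusted p = 0.0244). The A06 copy of XTH6, BnaA06g063680.4DH, varied more, with 11.8 and 25.3 TPM in the hairy leaves against 2.69 and 13.8 TPM in the glabrous leaves, which overlap (limma, adjusted p = 0.317). For both genes the hairy mean was over 2 times the glabrous mean in each copy. The copy that passed had the larger log2 change as well as the tighter glabrous pair.

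BnaC07g076280.4DH, the C07 copy of XTH17, had 113 and 88.2 TPM in hairy 1 and 3, against 32.4 and 45.7 TPM in glabrous 1 and 3 (log2 change 1.35; limma, adjusted p = 0.0432). The tested XTH17 copy with the smallest log2 change, BnaC01g009620.4DH, had 26.0 and 23.3 TPM in the hairy leaves against 10.9 and 15.4 TPM in the glabrous leaves (log2 change 0.88; limma, adjusted p = 0.264). BnaA08g026700.4DH, an XTH24 copy, had 1.91 and 3.74 TPM in the hairy leaves, against 0 and 0.198 TPM in glabrous 1 and 3 (log2 change 1.76; limma, adjusted p = 0.0184), a change that also depends on the pseudocount and was 4.01 with 0.1. The XTH24 copy with the smallest change, BnaC03g111260.4DH, had 1.69 and 2.13 TPM in the hairy leaves against 1.31 and 1.45 TPM in the glabrous leaves (log2 change 0.29; limma, adjusted p = 0.972). All of these pairs were without overlap, and they differ in the size of the gap. The XTH17 and XTH18 sequences are closely related: 4 of the 6 genes matched to XTH17 are described in the table as protein 18, so reads and names of these genes may be exchanged.

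The copies of XTH32 differed among themselves. BnaA04g033320.4DH on A04 had 3.41 TPM in hairy 1 and 6.91 TPM in hairy 3 and was listed at 0 in both glabrous leaves (log2 change 2.56; limma, adjusted p = 0.00263). This change likewise is no bound, and it was 5.63 with a pseudocount of 0.1. The most abundant copy, BnaC04g084620.4DH on C04, had 74.3 and 83.1 TPM in the hairy leaves against 110 and 65 TPM in the glabrous leaves (log2 change -0.11; limma, adjusted p = 1.00). Its change was 0.27 without glabrous 1. Whether reads of the A04 copy were placed on the other XTH32 copies cannot be told apart here, and the sum over all 6 copies overlapped between the lines. Of the 50 tested genes nearest to the A04 copy, 20% were higher in the hairy line and 10% lower. Around BnaC04g084620.4DH, 0% were higher and 20% lower, where all tested genes gave 5.24% and 4.48%. The part of these surroundings in the XTH32 values was not tested.

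The abundant copies of XTH4 and XTH9 were not called. BnaC03g062760.4DH, an XTH4 copy, had 237 and 228 TPM in hairy 1 and 3, against 167 and 75.6 TPM in glabrous 1 and 3 (limma, adjusted p = 0.248). BnaA03g045870.4DH, the other XTH4 copy, had 166 and 212 TPM in the hairy leaves against 122 and 55.5 TPM in the glabrous leaves (limma, adjusted p = 0.164). Both XTH4 copies had hairy leaves above glabrous leaves. BnaA09g002330.4DH, an XTH9 copy, had 157 and 182 TPM in the hairy leaves against 195 and 69.4 TPM in the glabrous leaves, and BnaC09g003060.4DH, another, had 112 and 116 TPM in the hairy leaves against 117 and 59.3 TPM in the glabrous leaves. Their log2 changes of 0.53 and 0.44 became -0.21 and -0.041 without glabrous 3. The only tested member whose hairy leaves both lay below the glabrous leaves was BnaC07g047680.4DH, an XTH27 copy chosen after its values were seen, with 22.2 and 9.60 TPM in the hairy leaves against 27.2 and 28.0 TPM in the glabrous leaves (log2 change -0.87; limma, adjusted p = 0.363).

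The differences lay mostly in clade II, which holds XTH17, XTH18 and XTH22 to XTH24. Its 54 members summed to 2205 and 2844 TPM in hairy 1 and 3, against 1003 and 864 TPM in glabrous 1 and 3, a ratio of 2.70. Of its 21 tested copies 9 were higher and 0 lower, 19 had hairy leaves above glabrous leaves, which 21.4% of all tested genes had, and the log2 changes ran from 0.29 to 3.28 with a median of 1.29. The called counts of every clade are read against 5.24% higher and 4.48% lower among all tested genes. Clade I summed to 881 and 1022 TPM in the hairy leaves against 820 and 384 TPM in the glabrous leaves, and 2 of its 14 tested copies were higher, with a median log2 change of 0.53. Clade IIIA summed to 124 and 136 TPM in the hairy leaves against 153 and 91.1 TPM in the glabrous leaves, with 1 of 7 tested copies higher, and clade IIIB to 139 and 96.5 TPM in the hairy leaves against 116 and 146 TPM in the glabrous leaves, with 0 of 6 higher. Clade II made up 65.9% and 69.4% of the family in the hairy leaves, against 47.9% and 58.2% in the glabrous leaves. These counts include the 3 copies that passed the low-value filter through the hairy leaves alone and so could not come out lower. They are copies of XTH23 and XTH24 in clade II and of XTH32 in clade IIIA. Whether the clades differ was not tested.

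The subgenomes shared the difference. Members on the A subgenome summed to 1674 and 2211 TPM in hairy 1 and 3, against 1079 and 754 TPM in glabrous 1 and 3, a ratio of 2.12. Members on the C subgenome summed to 1675 and 1888 TPM in the hairy leaves, against 1013 and 732 TPM in the glabrous leaves, a ratio of 2.04. The A share of the family stayed between 50.0% and 53.9% in all 4 leaves.

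Many members lie next to each other. By identifier order, 49 of the 107 members formed 16 runs of neighbours, of which 19 members were tested and 24 were listed at 0 in every leaf, while 29 of the 58 members outside runs were tested. Within a run, an abundant gene often stood beside silent ones. On A10, XTH12 and XTH25 were listed at 0 in every leaf beside the XTH22 copies BnaA10g022320.4DH and BnaA10g022330.4DH, and on C01 the XTH23 copy BnaC01g024390.4DH stood beside 3 copies of XTH13 at 0. On C02, the XTH22 copy BnaC02g016250.4DH adjoined another XTH22 copy at 0 in every leaf. XTH22 and XTH25 shared a run on 4 chromosomes, and XTH17, XTH18 and XTH24 shared a run on 6.

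Those 6 runs fell into expressed and nearly silent ones. On A01, C01 and C07 the XTH18 copy reached at least 56.3 TPM in each hairy leaf, and the XTH17 copy at least 13.9 TPM. On A03, A08 and C03 the XTH18 copy stayed at or under 0.264 TPM, and XTH17 was at 0 on A08 and C03 and reached 3.87 TPM on A03 in hairy 3. XTH24 was expressed on A01, with 7.55 and 11.1 TPM in hairy 1 and 3, and on C01, with 2.85 and 3.07 TPM in hairy 1 and 3. On C07 its copies were at or under 1.24 TPM beside an XTH18 copy at 104 and 84.7 TPM in the hairy leaves, and on A08 an XTH24 copy was called beside silent copies of XTH18 and XTH17.

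**Figure D4:**
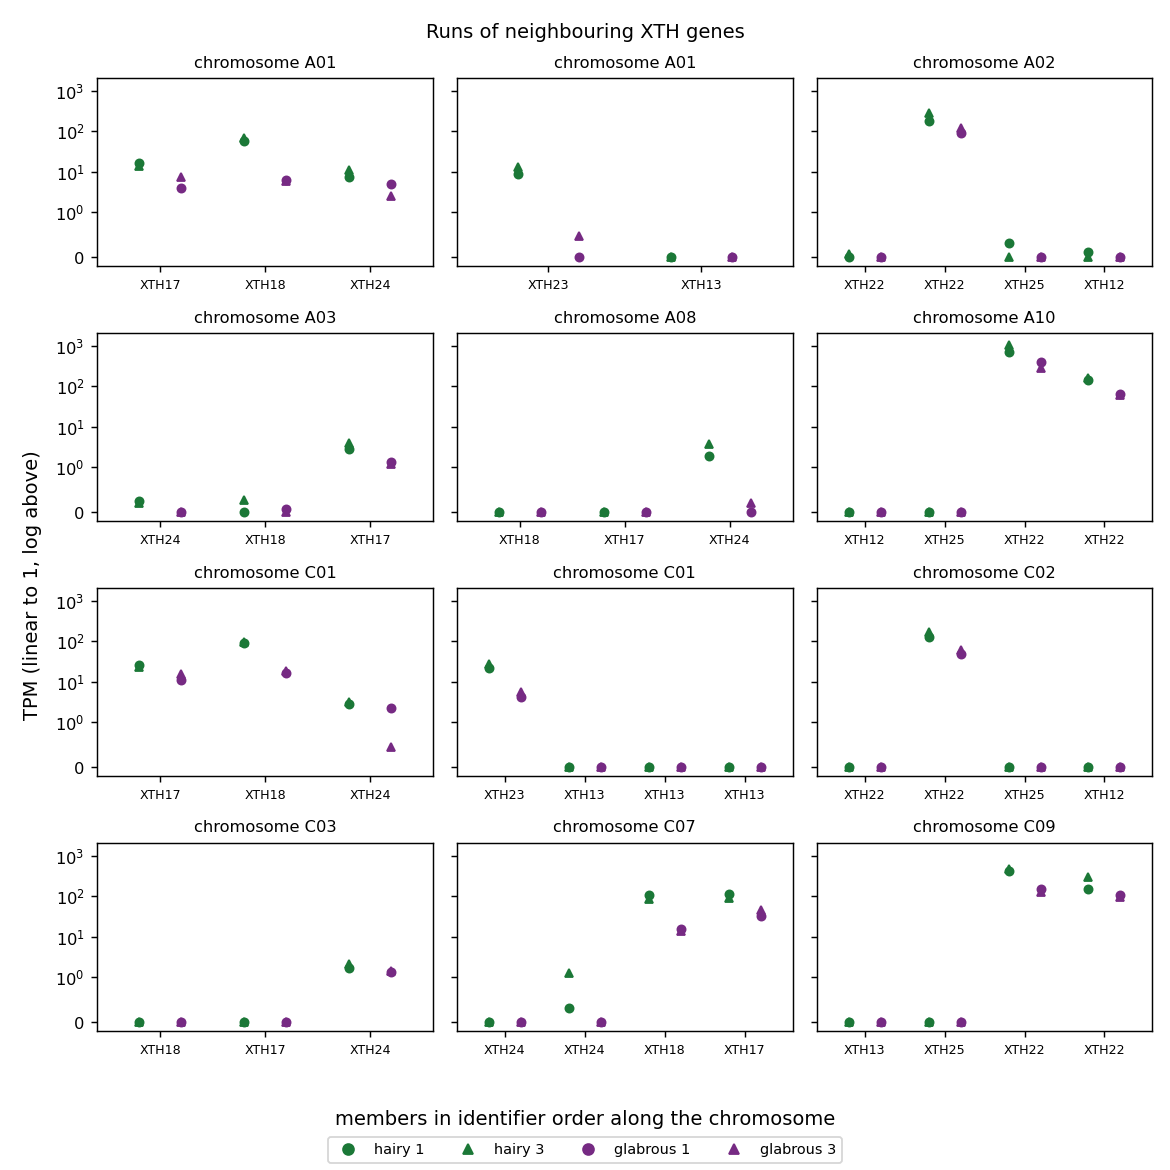
Each of the 12 panels is a run of neighbouring XTH genes with a tested member, with members in identifier order (x axis) and their TPM in the hairy and glabrous leaves (y axis, linear to 1 and log above). Abundant XTH22, XTH18 or XTH23 copies stand beside members listed at 0, and every tested member shown has hairy points above glabrous points.

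The chromosomal surroundings of the called copies were read from the same fit. Of the 50 tested genes nearest to each called XTH copy on its chromosome, 0 to 20% were also higher in the hairy line, with a median of 2.04%, against 5.24% of all tested genes. With 20 neighbours the median was 5%, near the share among all tested genes. The highest value belonged to the XTH32 copy on A04, and it was 35% with 20 neighbours. All other called copies had at most 12% such neighbours among 50. No member lies on C06.

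The leaves of a line differed from each other in the family. Of the 48 tested copies, 33 (68.8%) had a higher value in hairy 3 than in hairy 1, against 30.1% of all tested genes, and 27 (56.2%) were lower in glabrous 3 than in glabrous 1, against 28.2% of all tested genes. Hairy 3 and glabrous 3 were also the leaves with the highest and the lowest family total. Of 8 tested copies of leaf photosynthesis markers 0 were called, and 7 had hairy leaves below glabrous leaves, against 17.4% of all tested genes. All 8 were copies of LHCB1_1 or RCA. The other listed genes, RBCS1A and RBCS3B, stayed at or under 2.03 TPM summed over copies and were not tested. The sum of the marker list was 1910 and 2273 TPM in hairy 1 and 3, against 3098 and 4540 TPM in glabrous 1 and 3. The part of these markers in the XTH values was not tested.

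Markers of other cell types were looked at in the same fit, where 5.24% of all tested genes were higher and 4.48% lower. Trichome markers summed to 25.6 and 45.3 TPM in hairy 1 and 3, against 9.69 and 28.6 TPM in glabrous 1 and 3, with 1 of 6 tested copies higher, a copy of MYB23 near the threshold (limma, adjusted p = 0.0499). This MYB23 copy and both tested GL2 copies were under 1 TPM in both glabrous leaves. They passed the low-value filter through the hairy leaves alone and so could not come out lower. Epidermis markers summed to 886 and 921 TPM in the hairy leaves against 950 and 913 TPM in the glabrous leaves, with 0 of 14 copies called. Vascular markers summed to 53.9 and 37.9 TPM in the hairy leaves against 51.3 and 132 TPM in the glabrous leaves, with 1 of 19 lower, and stomatal lineage markers to 105 and 78.2 TPM in the hairy leaves against 116 and 164 TPM in the glabrous leaves, with 1 of 13 lower. Hairy leaves lay below glabrous leaves in 7 of the 19 and 5 of the 13, against 17.4% of all tested genes. They lay above in 1 copy of each list, against 21.4%. Shoot meristem markers had 0 tested copies and stayed under 0.379 TPM in sum, root hair markers stayed at or under 2.20 TPM, and flower markers summed to 4.99 and 3.86 TPM in the hairy leaves against 4.76 and 15.7 TPM in the glabrous leaves, with 1 of 2 tested copies lower. By gene, the sums of GL2 and MYB23 had hairy leaves above glabrous leaves, and those of GL1 and MYB106 overlapped. Among vascular genes, XCP1 and XCP2 had hairy leaves below glabrous leaves, and VND7, IRX3, APL and SUC2 overlapped. None of these gene sums was called. The list sums of trichome and vascular markers overlapped between the lines, and those of stomatal lineage and photosynthesis markers did not. All of these sums differed between leaves of a line, and their part in the XTH values was not tested.

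Other genes of xyloglucan metabolism were read from the same fit. Of 41 tested copies of xyloglucan synthesis genes, 3 were higher and 4 lower in hairy leaves, with a median log2 change of 0.31. Among all tested genes 5.24% were higher and 4.48% lower. Of 10 tested copies of trimming enzymes 2 were higher and 2 lower, with a median of 0.16. BnaA09g003540.4DH, a copy of the xyloglucan glucan synthase CSLC4, had 51.1 and 51.8 TPM in hairy 1 and 3, against 7.99 and 10.4 TPM in glabrous 1 and 3 (log2 change 2.37; limma, adjusted p = 0.00119). The tested CSLC4 copies on C07 and A06 also had hairy leaves above glabrous leaves. The C09 copy, BnaC09g004130.4DH, named after its values were seen, went the other way. It had 2.92 and 0.678 TPM in the hairy leaves against 6.39 and 10.3 TPM in the glabrous leaves (limma, adjusted p = 0.0579). BnaA01g004470.4DH, a copy of the fucosidase FUC95A, had 36.7 and 21.1 TPM in the hairy leaves against 4.27 and 6.46 TPM in the glabrous leaves (log2 change 2.20; limma, adjusted p = 0.00658). Both genes had hairy leaves above glabrous leaves also when summed over copies, with adjusted p of 0.0554 and 0.0652 in limma. Without hairy 3, 0 or 1 copies of the synthesis list and 0 or 1 of the trimming list were higher, depending on the low-value filter. Without hairy 1, these were 1 and 0, and without glabrous 3, 5 or 7 and 3.

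The lower copies in these lists shared a chromosome. BnaC06g046570.4DH, a copy of the xyloglucan xylosyltransferase XXT5, had 0.0503 and 0.548 TPM in hairy 1 and 3, against 9.68 and 18.6 TPM in glabrous 1 and 3 (log2 change -3.50; limma, adjusted p = 0.000752). BnaC06g051270.4DH, a copy of the alpha-xylosidase XYL1, had 0.156 and 0.0243 TPM in the hairy leaves against 5.48 and 18.2 TPM in the glabrous leaves (log2 change -3.36; limma, adjusted p = 0.0018). Because the hairy levels of these copies are near 0, their changes depend on the pseudocount and are no bound. With the lower copies of BZR1, a transcription factor of brassinosteroid signalling, 8 of 8 lower copies in the synthesis, trimming and brassinosteroid lists lay on C06, where 46% to 94% of their 50 nearest tested genes were lower too. All but BnaC06g063890.4DH of XXT5 and BnaC06g056610.4DH of XYL1 were under 1 TPM in both hairy leaves. Those copies passed the low-value filter through the glabrous leaves alone and so could not come out higher. Summed over copies, XXT5 and XYL1 overlapped between the lines, with log2 changes of 0.39 and -0.09. The 5 higher copies of these lists had 0 to 16% of neighbours called the same way, near the values of the called XTH copies.

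Genes linked to the induction of XTH22 in Arabidopsis were examined too. TCH2, a calmodulin-like touch gene, had 435 and 628 TPM over its copies in hairy 1 and 3, against 300.1 and 349 TPM in glabrous 1 and 3, above in both hairy leaves and not called (log2 change 0.69 ± 0.37 SE; limma, adjusted p = 0.79). TCH1, a calmodulin, summed to 0.737 and 0.154 TPM in hairy 1 and 3, against 0.636 and 0.202 TPM in glabrous 1 and 3, too low to be tested, and TCH3 was not analysed here. Of 30 tested copies of brassinosteroid genes 0 were higher and 2 lower, beside 5.24% and 4.48% of all tested genes, with a median log2 change of 0.07, and at most 1 was higher when any 1 leaf was left out. Their sum was 531 and 336 TPM in the hairy leaves against 260 and 532 TPM in the glabrous leaves, which overlap.

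The authors' deposited table gives its own test per transcript, for 78 transcripts of 64 XTH genes. In the authors' deposited table, 5 of these transcripts had a false discovery rate under 0.05, all higher in the hairy line, which is 6.41% against 4.05% of all tested transcripts in either direction. They were the transcripts of the 3 XTH18 copies and of both XTH23 copies. The authors' deposited table gives log2 fold changes of 3.30 for BnaA01g008054.4DH, 2.66 for BnaC07g076270.4DH and 2.59 for BnaC01g009670.4DH, all XTH18. A second transcript of BnaC01g009670.4DH had 1.37 in the authors' deposited table, with an adjusted p of 0.636. For XTH23, the authors' deposited table gives 5.72 for BnaA01g018300.4DH and 2.33 for BnaC01g024390.4DH, with adjusted p of 0.000703 and 0.0333. These are the copies of XTH18 and XTH23 that were called above, and the remaining 7 called copies had no transcript under that threshold there.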

How the data were processed

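Poly-A RNA of single very young leaves was sequenced as paired ends. The submitters' processing notes name cutadapt 1.9. For the aligner, the genome build and the gene models, the name was not given in the sources used here. For 185771 transcripts, the authors deposited TPM per leaf. It also holds the authors' mean TPM per line, the larger of these means as a signal, a signed fold change as a score, its log2 value, and a p-value and adjusted p-value per transcript, per the file headers. The test behind these p-values is not stated. Sequencing depth is unknown, so no counting interval is given, and precision rests on 2 leaves per line.

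TPM were summed over transcripts of a gene, and over transcripts that share an Arabidopsis match. A gene was listed under the match of its most abundant transcript. Features with at least 1 TPM in at least 2 leaves were transformed to log2(TPM + 1) and tested with limma 3.58.1 (R 4.3.3), using trended variances and robust shrinkage, and p-values were adjusted over all features by Benjamini-Hochberg. Calls were made at an adjusted p under 0.05. A log2 change is the hairy minus the glabrous mean, and it understates the change of low genes. The fit was checked on simulated data, with genes changed by 1, 2 and 4 on the log2 scale. P-values measure the spread between these leaves. Tables were handled with Python 3.11.15 and pandas 2.3.3.

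Members were found by words in the Arabidopsis annotation of any of their transcripts, without use of expression. Members, lists and alternatives were chosen with earlier results of these data known. Genes were named by rule: sums with a mean of at least 1 TPM, every called copy up to 24, the 10 most abundant tested copies, the highest and lowest copy of each gene with called copies, and up to 3 called copies for any other list. Neighbours were taken by identifier number, at most 10 steps apart for a run. Alternatives were other pseudocounts (0.1 and 0.5), filters, scalings and variance priors, fits that leave out a leaf, a block for the replicate number and a fit per transcript. A block with crossed numbers and a count over copies with 1 TPM in a leaf of each line were added after seeing the data. Clades and symbols follow the Arabidopsis gene codes.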

Additional observations from a re-analysis of the deposited data

How the results depend on the processing

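Against 12 copies called higher, the other pseudocounts, filters, scalings and variance priors gave 9 to 14, and the fit per transcript gave 6. Leaving out a leaf gave 3 to 20 copies and 1 to 5 sums higher, and over all genes 508 to 3423 higher and 641 to 1539 lower. The cause was not tested, and these fits assume that a lone leaf varies like the other line. With the replicate number as a block, 7 copies and 1 sum were higher, with 1834 genes higher and 1704 lower. The labels do not say what a shared replicate number means, so the numbers were not taken as pairing in the main fit. Same-numbered leaves deviated in opposite directions (r = -0.41 over 44247 genes). With crossed pairing, added after seeing the data, 19 copies, 6 sums and 3921 genes were higher and 3039 genes lower. The number of copies and sums lower stayed at 0 in every alternative. The log2 ratio of the family total ranged from 0.83 to 1.33 over leaves left out and was 0.96 with trimmed-mean scaling. Small log2 changes took the opposite sign without 1 leaf, within these ranges over the leaves left out. Turned without glabrous 3 were the XTH9 copies BnaA09g002330.4DH (-0.21 to 1.27) and BnaC09g003060.4DH (-0.041 to 0.93), and the sums of XTH9 (-0.22 to 1.01), XTH16 (-0.20 to 1.41), XTH31 (-0.88 to 0.38) and XTH32 (-0.25 to 0.54). Turned without glabrous 1 were BnaC04g084620.4DH of XTH32 (-0.49 to 0.27) and the XTH30 sum (-0.11 to 0.79). Turned without hairy 3 was the XTH28 sum (-0.35 to 0.036), and turned without hairy 3 or glabrous 3 were the sums of XTH10 (-0.55 to 0.22) and XTH27 (-0.59 to 0.13). Without a leaf the median log2 change of all genes lay between -0.17 and 0.25, against 0.03 with all leaves. Over copies with 1 TPM in a leaf of each line, a count added after seeing the data, 9 were higher. With 20 neighbours in place of 50, the median share of neighbours called the same way was 5%.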
